A study of Rattus norvegicus and Mus musculus with 3 samples.

Results

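Complex I is the NADH dehydrogenase of the respiratory chain, and the genes described here encode the subunits of it that are made in the nucleus. They were chosen by symbol alone: every gene in the deposited tables named Nduf followed by a, b, c, s, v or ab and a number, with the assembly factors (Ndufaf) left out. The rule found 38 of the 34714 genes listed for the mouse and 37 of the 30438 genes listed for each rat, and 37 symbols were present in all tables. Ndufa13 was found in the mouse table only.

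Hippocampal RNA was sequenced from 3 animals or pools, 1 library per group. The mouse library is the wild-type (genotype WT) control of the 3xTg-AD line, a transgenic model of Alzheimer's disease, at 6 months of age, and no transgenic animal is part of the data used. Both rat libraries are labelled WT at 3 to 4 months of age, 1 as Sham and 1 as 2VO. As background, 2VO is the usual name for tying off both common carotid arteries, which lowers blood flow to the forebrain, and Sham for the operation without it. The labels used here leave out strain, sex, the time since surgery and whether animals were pooled. Because every group is a single library, differences lack any replicate check and carry no p-value: they hold for these libraries and not for the conditions.

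Complex I takes electrons from NADH, passes them along iron-sulphur clusters to ubiquinone and pumps protons across the inner mitochondrial membrane. It is L-shaped: a matrix arm holds the module that oxidises NADH and the module that reduces ubiquinone, and a membrane arm, with a part near the matrix arm and a part far from it, pumps the protons. Core subunits carry the chemistry and are shared with bacteria, while accessory (supernumerary) subunits surround them and are needed for assembly and stability. Neurons depend on the complex for most of their ATP, and it is a known source of reactive oxygen species after interrupted blood flow. The 7 core subunits encoded in mitochondrial DNA had 0 rows in the tables, so only the nuclear side is seen.

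The promoters of the rat genes were read first, since nuclear genes of the respiratory chain are known to share binding motifs for the factor NRF1, for ETS family factors such as GABP, and for YY1. RefSeq promoters of the rat build GRCr8, from 250 bases before the start of transcription to 50 after it, were found for 35 of the 38 gene symbols. The others had no match. Both strands were searched for 4 motifs. The letters used for NRF1 were GCGCANGCG. For the ETS family they were CCGGAAG. Those of YY1 were AAGATGGC. A TATA box was read as TATAAA. The stretches printed here are the last 120 bases before the start, 5′ to 3′ on the strand of the gene, with matches in capitals. They show NRF1 matches for the gene with the highest 2VO to Sham ratio (Ndufa12), for Ndufa11, which was also among the higher ones, and for Ndufa5, Ndufv3 and Ndufs6. ETS matches are shown for Ndufb7 and Ndufs8, and Ndufb1, the gene with the lowest ratio, is shown without a match. The printed genes were picked, and each one with a match was higher in 2VO, Ndufs6 being taken by gene identifier. Among all subunit promoters found, 7 genes with NRF1 letters were higher and 2 lower. With ETS letters 4 were higher and 3 lower, and none of these lower genes is printed. Over all genes averaging 1 unit or more over the rats, 58.7% were higher in 2VO.
Ndufa12, GRCr8 chr7:30658196-30658315, plus strand: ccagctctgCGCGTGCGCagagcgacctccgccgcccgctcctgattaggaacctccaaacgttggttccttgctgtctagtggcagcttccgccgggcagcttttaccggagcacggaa
Ndufa11, GRCr8 chr9:1637494-1637613, plus strand: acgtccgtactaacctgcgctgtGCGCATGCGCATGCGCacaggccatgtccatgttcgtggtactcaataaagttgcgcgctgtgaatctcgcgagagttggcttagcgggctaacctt
Ndufa5, GRCr8 chr4:53971236-53971355, minus strand: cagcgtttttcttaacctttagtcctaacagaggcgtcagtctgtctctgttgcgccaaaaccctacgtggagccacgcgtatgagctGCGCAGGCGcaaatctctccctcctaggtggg
Ndufv3, GRCr8 chr20:9613666-9613785, plus strand: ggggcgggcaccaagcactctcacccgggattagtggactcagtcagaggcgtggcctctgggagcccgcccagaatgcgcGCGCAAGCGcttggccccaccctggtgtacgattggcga
Ndufs6, GRCr8 chr1:31797280-31797399, plus strand: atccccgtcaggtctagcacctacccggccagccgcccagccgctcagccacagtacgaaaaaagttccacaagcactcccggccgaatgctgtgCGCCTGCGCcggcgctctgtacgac
Ndufb7, GRCr8 chr19:41477292-41477411, minus strand: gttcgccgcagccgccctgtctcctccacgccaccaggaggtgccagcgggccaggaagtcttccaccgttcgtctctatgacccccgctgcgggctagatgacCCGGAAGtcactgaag
Ndufs8, GRCr8 chr1:210573699-210573818, minus strand: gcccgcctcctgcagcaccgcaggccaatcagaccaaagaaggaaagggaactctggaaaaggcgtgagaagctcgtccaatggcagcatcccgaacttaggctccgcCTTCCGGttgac
Ndufb1, GRCr8 chr6:126888865-126888984, minus strand: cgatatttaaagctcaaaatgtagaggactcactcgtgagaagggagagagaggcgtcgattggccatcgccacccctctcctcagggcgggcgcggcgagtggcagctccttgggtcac

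The NRF1 letters were in 9 of the 35 promoters (25.7%), against 7.62% of the 21851 promoters of protein-coding genes and 5.80% of all 33469 promoters of that length in the table. ETS letters were in 7 (20%), against 10.7% and 8.75%. YY1 letters were in 8 (22.9%), against 3.67% and 3.17%, and in all 8 they lay after the start, within the first 50 transcribed bases. None of the 35 promoters held the YY1 letters before the start, where 1.64% of protein-coding promoters did. Wholly after the start, 1.75% of protein-coding promoters held them. At least 1 of the NRF1, ETS and YY1 motifs was in 20 of 35 promoters (57.1%), against 19.4% of protein-coding and 15.7% of all promoters. The TATA box letters were in 3 (8.57%), against 13.0% and 14.2%. The subunit promoters also had a higher median GC content, 57.3% against 55.0% for protein-coding genes and 51.7% for all. A match of letters describes the sequence and is not a bound site, and the part of GC content in these shares was not tested.

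**Figure D1:**
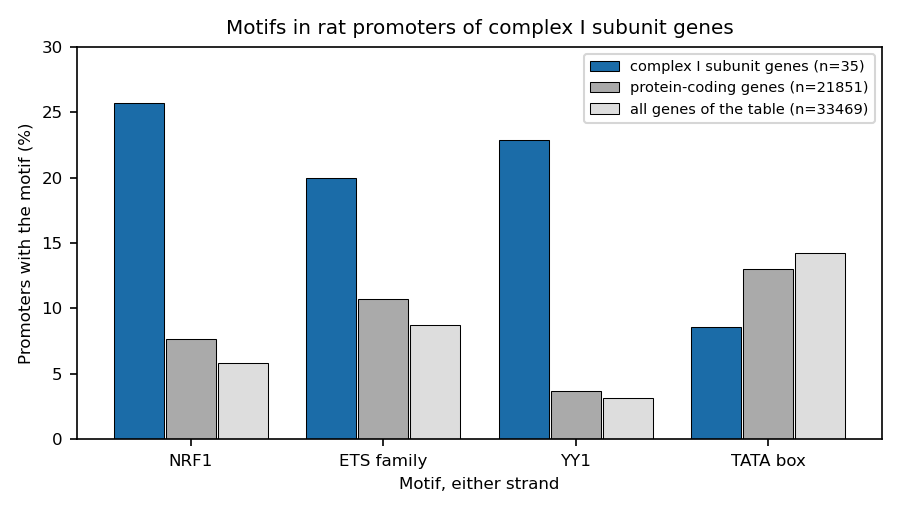
Share of rat promoters (in percent, from 250 bases before to 50 after the start) that hold each motif on either strand, for 35 complex I subunit genes, 21851 protein-coding genes and all 33469 genes of the RefSeq table. The subunit genes reach 25.7% for NRF1, 20% for the ETS family and 22.9% for YY1, each above both backgrounds, and 8.57% for the TATA box, below both.

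The deposited values are normalized expression values per gene whose unit is not stated, and the read depth of each library is unknown. Whether they are per transcript length could not be settled: among mouse genes above 0, the 1st percentile of the values was 0.00445 in the fifth of genes with the shortest transcripts and 0.0106 in the fifth with the longest, and did not fall with length. Values are therefore compared between libraries for the same gene, and the values of different genes are set side by side without ranking them as amounts of transcript. The members summed to 2277 units for the mouse, 2507 for Sham and 2659 for 2VO, or 0.847%, 0.770% and 0.796% of the sum of each table.

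Row names matter for 2 of the subunits in the rat. Ndufs6 is a zinc-binding accessory subunit of the NADH-oxidising module. The rat row with that name was listed at 0.289 units in Sham and 0.169 in 2VO, while the mouse value was 36.8. RefSeq's GRCr8 gene table gives Ndufs6 as an earlier name of the pseudogene Ndufs6-ps1 and assigns the present Ndufs6 to the gene identifier behind the row LOC679739. That row was 37.2 in Sham and 41.2 in 2VO, near the mouse value. Likewise Ndufa13, an accessory subunit also known as GRIM-19, had no row of its own in the rat tables, and the row LOC100911483, to which RefSeq now gives that symbol, was 151 in Sham and 115 in 2VO against 44.7 in the mouse. Which locus the authors' annotation called Ndufs6 is not stated in the labels or headers. The row named Ndufs6 is counted as a member, as the rule requires, and does not reach the mean of 1 unit over both rats needed to be called measured. The other 36 rat members do.

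Between the rats, complex I subunit genes were divided in direction, and the median size of their differences was somewhat above that of all measured genes. Of the 36 measured members 24 were higher in 2VO and 12 lower, or 66.7% higher, while 58.7% of all 13550 measured genes were higher. Ratios here are log2 of 2VO over Sham after adding 1 unit to each value, so differences between low values are understated. The members' median was 0.10 with an SD of 0.26 across members, from -0.58 to 0.63, beside a median of 0.04 and an SD of 0.24 over all measured genes. Scaled to equal upper quartiles instead, 20 members were higher and 16 lower, and 47.8% of all genes were higher. In absolute size the median difference was 0.16 for members and 0.13 for all measured genes. Taking Ndufs6 and Ndufa13 by gene identifier, 25 were higher and 13 lower, with the median still 0.10.

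On the same scale 5 members (13.9%) were at least 25% higher in 2VO, where 8.1% of all measured genes were, and 3 members (8.33%) were at least 20% lower, the same fold in the other direction, where 4.58% were. At 1.5-fold 1 member was higher and 0 were lower, against 1.51% and 0.967% of all genes. The same shares were taken over the 2790 genes whose mean lay in the range of the members, 24.2 to 171 units, where the SD of the ratio was 0.21. Of those 58.6% were higher, 7.24% at least 25% higher and 4.01% at least 20% lower, while 0.753% were at least 1.5-fold higher and 0.645% at least 1.5-fold lower. The member counts past these folds are of 5 genes or fewer. Taking Ndufs6 and Ndufa13 by gene identifier, 5 were at least 25% higher and 4 at least 20% lower.

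Cell type markers also differed between the rats, and their counts stand beside 58.7% of all measured genes higher in 2VO. Neuronal markers such as Snap25 and Syn1 were higher in 2VO in 9 of 11, summing to 2216 units in Sham and 2588 in 2VO. Oligodendrocyte markers were higher in 9 of 9, from 3850 to 4833, microglial markers lower in 7 of 9, from 199.99 to 156, and astrocyte markers lower in 5 of 9, from 2102 to 1824. That lower astrocyte sum rests on Gfap, at 778 and 360.0, without which the other 8 summed to 1325 and 1464. Markers of hippocampal neurons, such as Prox1 and Wfs1, were above 0 in 8 of 8 in every library, and 6 of 8 were lower in 2VO, from 417 to 356. Wfs1 alone was 169 and 111, and the other 7 summed to 248 and 245. Every marker of these 5 lists was above 0 in each library. Choroid plexus markers were low, at 1.48 and 6.86 summed over 5 genes. Fewer cells of a type and less RNA per cell cannot be told apart in bulk samples. The part of cell composition in the subunit values was not tested.

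**Figure D2:**
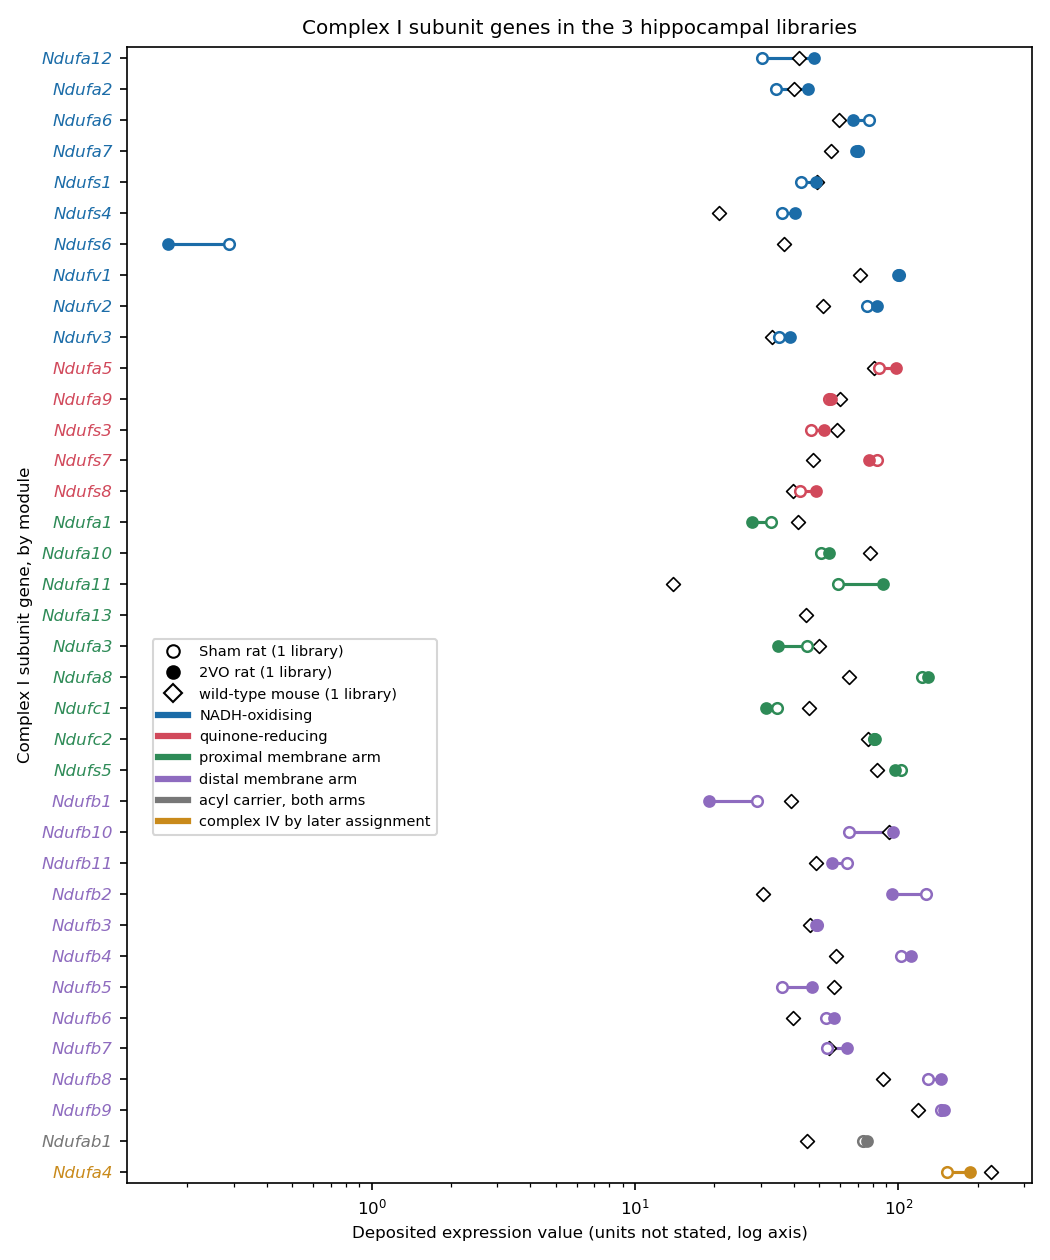
Deposited values of complex I subunit genes (log axis, units not stated) in the Sham rat (open circles), the 2VO rat (filled circles) and the wild-type mouse (diamonds), 1 library each and so without error bars, coloured by module. The rat row named Ndufs6 stands apart at 0.289 and 0.169 with the widest gap between the rats on this axis, followed by Ndufa12 and Ndufb1.

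Nuclear core subunits, which carry the redox groups, had log2 ratios between the rats no further from 0 than 0.19. Ndufv1, which binds NADH and the flavin that takes its electrons, was 101 units in Sham, 99.95 in 2VO and 71.4 in the mouse, and the rats' log2 ratio was -0.01. Its neighbour Ndufv2, a carrier of an iron-sulphur cluster, was 75.7 and 82.6, and Ndufs1, the largest subunit, with several clusters, was 42.7 and 48.7. These 3 differed by at most 1.14-fold. In the quinone-reducing module the core subunit Ndufs3 was 46.7 and 52.4. Ndufs8, which carries iron-sulphur clusters, was 42.4 and 48.5, while Ndufs7, which holds the last cluster before ubiquinone, was lower in 2VO like Ndufv1, at 83.1 and 77.0.

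Of the 7 core subunits 5 were higher and 2 lower, 0 were 25% higher or 20% lower, and their ratios ran from -0.11 to 0.19 (median 0.16, SD 0.11). For the 29 measured accessory subunits, with Ndufa4 counted among them, the median was 0.07 and the SD 0.28. All 8 members past those bounds were accessory. Among 7 genes these counts show nothing apart from the background, since 58.7% of all measured genes were higher, 8.1% were 25% higher and 4.58% were 20% lower. The difference in spread between the 7 and the 29 genes was not tested. The median size of the difference was nevertheless alike, 0.16 for core and 0.17 for accessory subunits, beside 0.13 for all measured genes. The largest was 0.19 for core against 0.63 for accessory subunits. In the mouse annotation GENCODE M21 the longest coding transcript had a median of 1623 bases for core and 868 for accessory subunits, against 3277 for the measured genes with a length. Across the 35 measured members with a length, length and the size of the difference had a Pearson's r of -0.03 and a Spearman's rho of -0.13, a description of genes that share the same 2 libraries.

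Other genes of the NADH-oxidising module included the member furthest above 0. Ndufa12, an accessory subunit added late in assembly and a paralogue of the assembly factor Ndufaf2, was 30.4 units in Sham and 47.6 in 2VO. It was 1.57-fold higher in 2VO, and its log2 ratio of 0.63 stood at percentile 98.8 of all measured genes. The mouse value of 42.1 lay between the rats. Ndufa2, a small subunit with a thioredoxin-like fold, was 34.3 in Sham, 45.3 in 2VO (0.39) and 40.2 in the mouse, also between the rats. Ndufs4, whose loss causes Leigh syndrome in people and a widely used encephalopathy model in mice, was 36.0 and 40.6, and Ndufv3 was 35.1 and 38.8. Ndufa6 and Ndufa7 were lower in 2VO, at 77.3 and 67.0 and at 70.4 and 68.8. Of the module's 9 measured members 6 were higher and 3 lower (median 0.14), where 58.7% of all measured genes were higher (median 0.04).

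In the quinone-reducing module 5 of 6 were higher, and the median was 0.16, beside 58.7% higher and a median of 0.04 over all measured genes. None of the 6 was 25% higher or 20% lower, which so few genes cannot set apart from the 8.1% and 4.58% over all measured genes. Its accessory members were Ndufa5, at 84.1 and 97.8, and Ndufa9, which holds an NADPH molecule next to the quinone site, at 54.4 and 55.7. The largest difference in the module was the log2 ratio of 0.22 for Ndufa5.

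The part of the membrane arm next to the matrix arm was evenly divided by row name, 4 higher and 4 lower. Its median of -0.03 was the only one of the 4 modules below 0. Ndufa13 also belongs to this part but is not in that count, and its row by gene identifier was lower in 2VO (-0.39). Ndufa11, a membrane subunit linked to the contact with complex III in supercomplexes, was 59.1 in Sham and 87.1 in 2VO (0.55). Ndufa3 went the other way, at 44.8 and 34.8 (-0.36), as did Ndufa1, a small membrane subunit encoded on the X chromosome, at 32.95 and 27.9 (-0.23). Ndufc1 was 34.5 and 31.4, and Ndufs5 was 102 and 96.6. Ndufc2 (80.6 and 81.5), Ndufa8 (123 and 129) and Ndufa10 (50.9 and 54.3) lay within 1.07-fold. Ndufa10 has a near copy in the rat, Ndufa10l1, outside the rule, at 13.6 and 20.4, and no label says how reads shared by the pair were counted.

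The part far from the matrix arm held the lowest ratio of all members and spanned the widest range of the modules. Ndufb10, which carries disulphide bonds formed in the intermembrane space, was 64.9 in Sham and 95.3 in 2VO (0.55). Ndufb1, one of the smallest subunits, was 29.2 in Sham, 19.1 in 2VO and 39.1 in the mouse, so that 2VO was the lowest library. Its log2 ratio of -0.58, at percentile 0.974 of all measured genes, was the lowest among members. Ndufb2 was 127 and 94.5 (-0.42), and Ndufb5 was 36.1 and 46.9 (0.37). Of these 11 genes 7 were higher and 4 lower, and the median was 0.10, where 58.7% of all measured genes were higher (median 0.04). Values nearer to 0 were those of Ndufb7, at 53.5 and 64.0, Ndufb11, at 63.7 and 55.9, Ndufb8, at 129.6 and 145, and Ndufb4, at 102 and 112. Ndufb6 was 53.1 and 57.1, Ndufb9 was 145 and 149, and Ndufb3 was 49.2 and 48.8, each within 1.08-fold.

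Members outside these modules were Ndufab1, the mitochondrial acyl carrier protein, which sits in both arms, at 73.5 in Sham and 75.7 in 2VO, and Ndufa4, at 154 and 188. Ndufa4 was later reassigned to complex IV. Without it the members' median was 0.09.

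**Figure D3:**
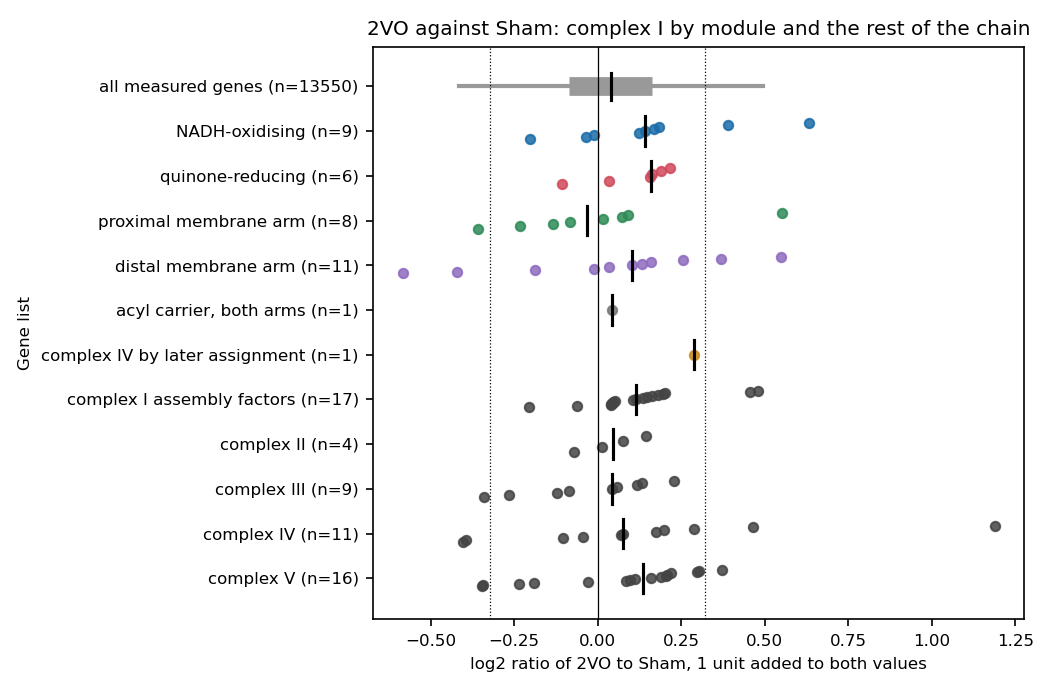
log2 ratio of 2VO to Sham, 1 unit added to both values, for each measured gene (points) by module and for the assembly factors and complexes II to V; black ticks are medians, the grey row gives the central 50% (thick) and 95% (thin) of all 13550 measured genes, and dotted lines mark 25% higher and 20% lower. The quinone-reducing module stays between -0.11 and 0.22, and the distal membrane arm runs from -0.58 to 0.55.

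Copies of subunit genes elsewhere in the genome can share reads with them. RefSeq's GRCr8 table names copies for 20 of the 37 rat members, among them Ndufb4 with 11, Ndufa5 and Ndufa2 with 4 each and Ndufb1 with 3, but 0 for Ndufa11, Ndufb2 and Ndufb5. The median size of the difference was 0.17 for the 19 measured members with a named copy and 0.16 for the 17 without. Of the 8 members at least 25% higher or 20% lower, 5 had a named copy and 3 had none, and the values of Ndufa12, Ndufa2, Ndufb10, Ndufb1 and Ndufa3 are uncertain to that extent. How shared reads were counted is not stated in the labels or headers.

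Genes that build the complex were mostly higher in 2VO by small amounts. Of 21 listed assembly factors 17 were in the rat tables and measured: 15 were higher and 2 lower (median 0.11), beside 58.7% of all measured genes higher. With equal upper quartiles the split was 11 and 6. Ndufaf2, the assembly chaperone whose place Ndufa12 takes, was 3.38 in Sham and 5.11 in 2VO (0.48), and Tmem126a was 3.15 and 4.70 (0.46). The lower ones were Timmdc1, a membrane arm assembly factor, at 22.2 and 19.1, and Ndufaf5, which hydroxylates Ndufs7, at 17.6 and 16.8.

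The other complexes were divided as well. Their medians were 0.05 for 4 genes of complex II, 0.04 for 9 of complex III, 0.07 for 11 of complex IV (Ndufa4 counted here too) and 0.14 for 16 of complex V. Complex I, at 0.10, lay within that range. The gene furthest from 0 was Cox7b of complex IV, at 68.3 in Sham and 157 in 2VO. With Cox5b (137 and 189) it stood opposite Cox6c (196 and 149) and the little expressed isoform Cox4i2 (1.32 and 0.758). In complex V, Atp5f1e (91.8 and 119) and Atp5mc3 (139 and 172) were higher, and the inhibitor Atp5if1 (168 and 132) and Atp5pd (187 and 148) lower. Complex III had Uqcrc2 (96.0 and 113) and Cyc1 (95.6 and 105) above, and Uqcrb (25.3 and 19.8) and Uqcrh (119 and 99.3) below. The flavoprotein of complex II, Sdha, was 94.0 and 104, Sdhb 72.5 and 76.6, and Sdhc 82.9 and 78.99. Among 20 genes of mitochondrial mass and biogenesis 14 were higher and 6 lower (median 0.07), where 58.7% of all measured genes were higher (median 0.04). The protease gene Clpp was 8.59 and 13.1, and Ppargc1a, which encodes the coactivator PGC-1alpha, was 6.62 and 8.34. Lowest were the mitochondrial RNA polymerase gene Polrmt (10.8 and 9.56) and Gabpb1 (6.11 and 5.41), which encodes a subunit of GABP. Nrf1, which encodes the factor of the motif, was 3.79 and 4.34. The difference between complex I and these lists was not tested.

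By promoter motif the ratios overlapped, from -0.20 to 0.63 with the NRF1 letters and from -0.58 to 0.39 without. The 9 genes with the NRF1 letters, Ndufs6 being taken by gene identifier, were 7 higher and 2 lower (median 0.14). The 26 without them were 15 higher and 11 lower (median 0.04). Of all measured genes 58.7% were higher (median 0.04), and of the measured members 66.7%. Ratios by motif were not computed for genes other than the subunit genes. For the ETS letters the medians were 0.18 with and 0.10 without, and for YY1 0.09 and 0.10. Of the 3 genes with the largest ratios, Ndufa12, Ndufa11 and Ndufb10, each held the NRF1 letters, which in Ndufb10 began at the first transcribed base. Ndufb1 and Ndufb2, the lowest, held none of the NRF1, ETS and YY1 letters. The next lowest did: Ndufa13 by gene identifier (-0.39) held ETS letters and Ndufa3 (-0.36) YY1 letters. Ndufb5 (0.37), among the higher ones, held none. At least 1 of these motifs was in 20 of the 35 promoters. These genes were picked after the values were known and are given as a description.

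The wild-type mouse is compared with the rats by level alone: species, age and annotation differ together and cannot be told apart. Over the 37 shared symbols Spearman's rho of the listed values was 0.653 between mouse and Sham and 0.667 between mouse and 2VO, against 0.956 between the rats, which share species, age and annotation. Pearson's r was 0.443, 0.440 and 0.976, and without Ndufs6 0.576, 0.569 and 0.931. Over 11436 shared symbols rho was 0.866 between mouse and Sham and 0.990 between the rats, each above the value for the members. The SD of the log2 ratio of Sham to mouse was 1.04 across the 37 members and 0.63 without Ndufs6, where Sham and 2VO gave 0.26. Over the 11436 shared symbols the SD between mouse and Sham was 0.82. No misnamed rows were sought among those symbols, so 0.82 is the like of 1.04 and not of 0.63. Of 37 members 21 (56.8%) were higher in Sham than in the mouse, where 57.2% of those 11436 symbols were. At least 2-fold apart, on the scale with 1 unit added, were 3 members (8.11%), where 17.9% of the 11436 symbols were. The 3 members were Ndufs6, described above, Ndufa11 and Ndufb2.

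For Ndufa11 the mouse value of 14.0 units compared with 59.1 in Sham and 87.1 in 2VO, and for Ndufb2 the mouse value of 30.6 with 127 and 94.5. By rank among all 16251 shared symbols, without a filter on level, Ndufa11 stood at percentile 74.1 in the mouse and 93.9 in Sham. Ndufb2 stood at 88.8 and 97.7. Both rats stood above the mouse for each gene, and the same 2 genes were among the 8 members furthest apart between the rats. Ndufs4 was also lower in the mouse, at 20.9 against 36.0 and 40.6, and Ndufa8 was 65.0 against 123 and 129. In the other direction Ndufb5 was 56.8 for the mouse, above 36.1 and 46.9 for the rats, and Ndufa10 was 78.2 against 50.9 and 54.3. Ndufa12, at 42.1, and Ndufb10, at 92.4, were closer in the mouse to 2VO than to Sham.

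Among core subunits Ndufs8 was 39.7 in the mouse and Ndufs1 48.9, with log2 ratios of mouse to Sham of -0.09 and 0.19. Ndufs7, at 47.4, Ndufv1, at 71.4, and Ndufv2, at 51.9, were below both rats, and Ndufs3, at 58.6, was above both. Ndufa4 was 224 in the mouse, above 154 in Sham and 188 in 2VO. In the NADH-oxidising module the other mouse values were 33.1 for Ndufv3, 59.4 for Ndufa6 and 55.4 for Ndufa7, the latter pair below both rats. Ndufa5 was 80.8 and Ndufa9 60.1. In the near membrane arm Ndufa1 was 41.7, Ndufa3 49.98 and Ndufc1 45.7, each above both rats, while Ndufc2 was 76.8 and Ndufs5 83.0. In the far membrane arm Ndufb3 (46.3), Ndufb4 (57.9), Ndufb6 (39.6), Ndufb8 (87.4), Ndufb9 (119) and Ndufb11 (48.7) were below both rats, and Ndufb7 (54.3) was between them. Ndufab1 was 45.0, also below both.

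**Figure D4:**
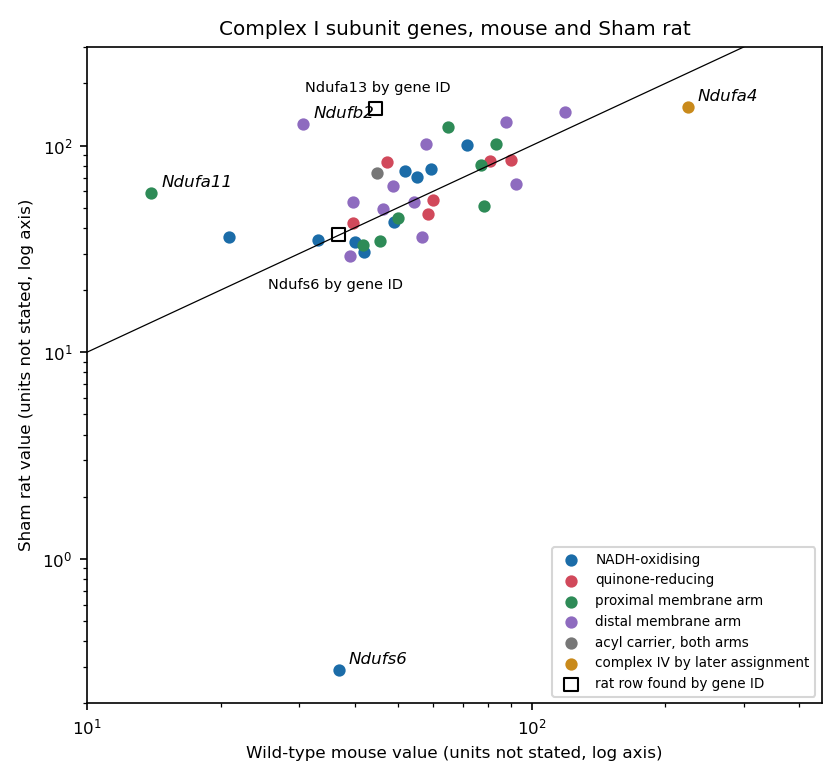
Deposited value of each complex I subunit gene in the wild-type mouse (x) and the Sham rat (y), both on log axes with units not stated, 1 library each; the line marks equal values. Ndufs6 by row name lies at 36.8 and 0.289 and its row by gene identifier (square) on the line, while Ndufa11, Ndufb2 and Ndufa13 by gene identifier lie above it.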

How the data were processed

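TRIzol RNA of hippocampus went into TruSeq v2 libraries, per the labels' protocols. Each deposited table holds 1 normalized expression signal per gene, made by the authors, with its unit not stated. Tools named per the submitters' processing notes, with no role, are HISAT2 2.1.0, fastp 0.21.0 and DESeq2, and the builds are mRatBN7.2 for rat and GRCm39 for mouse. Table sums were 268889 (mouse), 325636 (Sham) and 333941 (2VO) units. The sequencing depth of each library is unknown, so no counting interval is given.

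Tables were used as deposited. Genes averaging 1 unit or more over the rats were called measured, and log2 ratios had 1 unit added. Groups follow the titles. Groups of 1 library allow no test. The calculation was tested on simulated data with 2-fold changes. No measured member differed that much between the rats, so differences of the members' size were not covered. Tables were joined by symbol, ignoring case. Values in every library were to be named for the 7 core subunits, members at least 25% higher or 20% lower, the highest and lowest of each module and the 3 members with the largest rank difference between mouse and Sham in each direction. Of other lists the 2 genes furthest from 0 in each direction were named, and Nrf1 was added for its motif. The values of 1 member enter the counts and medians but are not reported here. The members, lists and rules were chosen with earlier results of these data known. Alternatives were 0.25 or 4 units added, dropping the filter or raising it to 5 units, 3 other scalings, a lowess trend (span 0.3) and other member sets; those by gene identifier, by named copy and without Ndufs6 were chosen after seeing the data. Python 3.11.15, pandas 2.3.3, numpy 2.4.6, statsmodels 0.14.6 and matplotlib 3.10.9 were used. GENCODE M21 and GRCr8 differ in build from the notes and served for names, lengths and promoters only.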

Additional observations from a re-analysis of the deposited data

How the results depend on the processing

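The single library per group and the unknown depth limit every value, and no alternative replaces a replicate. No paired analysis was possible because each group holds 1 library. The members' median of 0.10, beside 0.04 over all measured genes, kept its sign in every setting run. With equal upper quartiles it was 0.04 beside -0.010 over all genes, and with median-of-ratios scaling 0.05 beside -2.1e-05. With sums that left out the top 50 genes it was 0.06 beside 0.0058, and with the lowess trend 0.06 beside -0.00080. The 2 medians thus moved down together, and no scaling moved that of all genes by more than 0.05. The number of members at least 1.5-fold lower was 1 in place of 0 with 0.25 units added, with equal upper quartiles, with median-of-ratios scaling, with sums that left out the top 50 genes and with the lowess trend; the gene was Ndufb1. With equal upper quartiles 0 members were at least 1.5-fold higher, 6 assembly factors were lower, and the medians of complexes II and III became -0.010 and -0.014; with median-of-ratios scaling that of complex III became -0.0022. Over the 17 members without a named copy 12 were higher and 5 lower, 2 at least 25% higher, 1 at least 20% lower and 0 at least 1.5-fold higher, since fewer genes were counted. The YY1 letters were in 0 promoters over the 250 bases before the start alone. Members near 0 changed sign: Ndufa9, Ndufb9 and Ndufc2 became -0.022, -0.021 and -0.038 with equal upper quartiles, -0.011, -0.0098 and -0.027 with median-of-ratios scaling, -0.0041, -0.0031 and -0.020 without the top 50 genes and -0.0063, -0.0069 and -0.024 with the lowess trend, and Ndufab1 became -0.012 and -0.00063 in the first 2. The cause was not tested.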

Other observations

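Some related rows fall outside the rule on symbols. Ndufa4l2, a relative of Ndufa4 that low oxygen is known to induce, was low in all libraries, at 1.23 units in Sham, 0.967 in 2VO and 0.942 in the mouse. The rat row LOC100363268, which RefSeq's GRCr8 table names as the pseudogene Ndufs5-ps2, was above 0, at 5.54 in Sham and 4.75 in 2VO. The rows LOC684509 and LOC691736, named there as copies of Ndufa3 and Ndufb4, were listed at 0 in both rats. In the mouse table Ndufb4b was 8.91 and Ndufb4c 9.49, beside 57.9 for Ndufb4.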
